A study of Bos taurus with 138 samples.

Results

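The Hippo pathway and its TEAD transcription factors were followed through bovine oocyte maturation and preimplantation development by means of 10 genes, the coactivators YAP1 and WWTR1 (also called TAZ), the DNA-binding factors TEAD1, TEAD2, TEAD3 and TEAD4, the kinases LATS1 and LATS2, and the upstream regulators AMOTL2 and NF2. The genes were taken by name from the 16706 gene symbols of the count table, and all 10 passed the filter on low counts that left 14612 genes for testing. In the Hippo pathway, LATS kinases phosphorylate YAP1 and WWTR1, which are then kept out of the nucleus or degraded. When the kinases are inactive, the coactivators enter the nucleus and act on their target genes through TEAD factors. The pathway is best known in the early embryo from the mouse, where TEAD4 with nuclear YAP1 turns on trophectoderm genes in the outer cells, while LATS kinases and angiomotin-family proteins act in the inner cells.

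RNA was collected at 6 stages, germinal vesicle (GV) oocytes, metaphase II (MII) oocytes, and 2-cell, 8-cell, morula and blastocyst embryos. All came from Bos taurus slaughterhouse ovaries, with no genetic change and no treatment group. GV oocytes were taken from follicles, MII oocytes were matured in vitro, and embryos came from matured oocytes fertilized in vitro with semen of 1 Holstein bull. Each stage had 2 sucrose gradients (A and B) cut into 10 fractions, and 3 whole transcriptomes (A, B and C), each made from pooled oocytes or embryos, so animals cannot be told apart within a library. All gradient material was exposed to cycloheximide, which holds ribosomes on their mRNA, and fractions F1 and F2 held free RNA, F3 to F5 monosomes (1 ribosome on an mRNA), F6 and F7 the boundary between them and the heavy fractions, and F8 to F10 polysomes (several ribosomes on an mRNA). Fractions F8 to F10 of each gradient were added up as 1 polysome pool, which gave 2 pools beside 3 transcriptomes at each stage. By the study's methods the fractionation was run 2 times and the transcriptomes came from the same batches of oocytes or embryos, but the labels do not tie a library to a batch or culture. The p-values therefore measure the spread between these libraries, part of which may be technical.

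The 120 fraction libraries held 1229375 to 17342854 counts, the 18 transcriptomes 3269385 to 11812541 and the 12 polysome pools 22543733 to 39380640, and values are given as CPM, a gene's counts scaled to a common library total. The transcriptomes detected 13078 to 14333 genes. Fractions F8 to F10 detected fewer, from 5714 (morula F9 of gradient A) and 7396 (MII F10 of gradient B) up to 12829. Lighter fractions ranged from 4951 (blastocyst F1 of gradient B) to 14093 (GV F3 of gradient B). The 2 gradients of a stage differed, as the median over fractions and over genes with a mean of 10 to 100 CPM, by 0.456 to 0.631 on the log2 scale of CPM plus 1 from GV to 2-cell and 1.16 to 1.7 from 8-cell to blastocyst, so fraction profiles of the later stages were less precise. The stage labels were checked against marker sums. The summed level of 9 oocyte markers fell from 18880 to 21930 CPM in GV transcriptomes to 41.05 to 158.8 CPM in blastocysts, and that of 10 trophectoderm and inner cell mass markers rose from 60.62 to 72.29 CPM to 4898 to 5640 CPM. The 10 cumulus cell markers summed to 568.8 to 699.3 CPM in GV transcriptomes, 266.9 to 1195 CPM at the 8-cell stage and 29.58 to 33.4 CPM in morulae. Their part in the results below was not tested.

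Across development, transcripts of 6 of the 10 genes were higher in blastocysts than in GV oocytes and those of LATS2 were lower, among 27.8% of all tested genes called higher and 28.5% called lower (56.4% in all, edgeR quasi-likelihood test, Benjamini-Hochberg adjusted p under 0.05). The higher genes were WWTR1, TEAD4, AMOTL2, NF2, TEAD2 and LATS1. The median log2 change was 1.95 over the 10 genes and 0.0 over all genes. In these bulk libraries, fewer cells of a type and less RNA per cell cannot be told apart.

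The coactivators followed different courses. YAP1 transcripts were at 2.05, 1.64 and 1.82 CPM in the 3 GV transcriptomes and at 7.84, 7.91 and 8.80 CPM in the 3 2-cell transcriptomes, and reached 0.882, 4.35 and 3.40 CPM in blastocysts. The 2-cell libraries were the highest and did not overlap with any other stage, while neighbours among the other 5 stages overlapped. No single step between consecutive stages passed the test for YAP1, and the largest was a log2 change of 1.26 (SE 0.71) from GV to MII (edgeR adjusted p = 0.25).

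WWTR1, the YAP1 paralog, was detected at a low level in all 9 earlier transcriptomes and rose at the 8-cell stage. It stood at 0.380, 0.879 and 1.13 CPM in the 2-cell transcriptomes and at 18.2, 28.6 and 24.5 CPM in the 8-cell transcriptomes. All 8-cell libraries lay above all earlier ones, and the log2 change was 4.89 (SE 0.68, edgeR adjusted p = 2.48e-06). Morula transcriptomes held 47.1, 58.6 and 49.4 CPM, the highest of the 6 stages, and blastocysts 28.5, 40.6 and 42.2 CPM, although neither step passed the test.

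Among the TEAD factors, TEAD4 was not detected in 8 of the 9 transcriptomes before the 8-cell stage. No count fell on TEAD4 in any GV or MII transcriptome and 1 count fell on it over the 3 2-cell transcriptomes, against 9.77, 12.5 and 27.6 CPM at the 8-cell stage, 570 counts in all. The ratio of 8-cell to 2-cell was 647, with a 95% counting interval of 115.6 to 25590 (edgeR adjusted p = 9.78e-06). The interval covers counting error only, as do the bounds below. Morula libraries held 38.6, 31.0 and 20.7 CPM and blastocysts 17.1, 22.2 and 17.0 CPM, and against the GV floor of 3 counts the blastocyst level was at least 206.6-fold higher (edgeR adjusted p = 5.38e-06).

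TEAD1 went the other way at the same step. Its level was 28.2, 24.1 and 23.3 CPM in 2-cell transcriptomes and 7.03, 3.23 and 3.91 CPM in 8-cell transcriptomes, and it then stayed at 5.59 to 9.24 CPM. The early and late stages did not overlap, and the 2-cell to 8-cell log2 change was -2.41 (SE 0.81, edgeR adjusted p = 0.0155). The call was lost without 8-cell transcriptome B (-2.20, adjusted p = 0.0624) or C (-2.29, adjusted p = 0.0539). From GV to blastocyst the TEAD1 change of -1.87 missed the threshold (edgeR adjusted p = 0.0505), and it was called under 6 alternatives, the likelihood ratio test, DESeq2, RLE factors, library size alone, transcriptomes fitted alone, and pools without MII F10 of gradient B and morula F9 of gradient A.

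TEAD3 rose and fell around the 2-cell stage. MII transcriptomes held 0.344, 1.01 and 0.952 CPM, 2-cell transcriptomes 3.65, 4.88 and 6.02 CPM, and 8-cell transcriptomes 0.943, 0.538 and 1.91 CPM. The 2-cell libraries lay above those of both neighbouring stages, with log2 changes of 2.64 (SE 0.56, edgeR adjusted p = 0.00218) into and -2.09 (SE 0.54, edgeR adjusted p = 0.00249) out of the stage. Morula transcriptomes ranged from 1.29 to 4.20 CPM and overlapped with the 2-cell range.

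TEAD2 stayed low until the blastocyst. It was at 1.14, 2.46 and 1.93 CPM in GV transcriptomes and at 6.76, 14.1 and 11.6 CPM in blastocysts, where every library exceeded all those of earlier stages. The log2 change from GV was 2.56 (SE 0.97, edgeR adjusted p = 0.0274), and the Morula to blastocyst step alone, 2.17, was not called (edgeR adjusted p = 0.10). The GV to blastocyst call did not hold without GV transcriptome A (2.30, adjusted p = 0.0946) or C (2.60, 0.0667), nor without blastocyst transcriptome B (2.33, 0.0686) or C (2.52, 0.0513).

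The kinases diverged from each other. LATS2, which phosphorylates the coactivators, was at 17.99, 25.12 and 18.85 CPM in GV transcriptomes and at 15, 25.3 and 12.3 CPM at the 8-cell stage, and then at 6.44, 4.02 and 7.22 CPM in morulae and 2.35, 3.11 and 0.600 CPM in blastocysts. Every morula library lay below every 8-cell library and every blastocyst library below every morula library. Neither step was called by itself (edgeR adjusted p = 0.0561 and 0.0655), whereas GV to blastocyst gave a log2 change of -3.36 (SE 0.62, edgeR adjusted p = 7.19e-05). LATS1, the other kinase, was at 6.30, 7.18 and 7.60 CPM in GV transcriptomes and between 13.05 and 24.24 CPM in all 15 later ones. Its GV to blastocyst change of 1.33 (SE 0.57) was called with an edgeR adjusted p of 0.0484, and the call was lost when any of the 6 transcriptomes was left out, with changes from 1.26 to 1.43 and adjusted p from 0.062 to 0.121. It was also lost under 6 other alternatives, RLE factors and library size alone among them (adjusted p = 0.0606 and 0.0704). By the library left out the values were 1.26 (GV A), 1.35 (GV B), 1.40 (GV C), 1.43 (blastocyst A), 1.32 (blastocyst B) and 1.27 (blastocyst C).

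Both upstream regulators increased. AMOTL2, an angiomotin-family protein that can bind YAP1, was at 0.457, 0.640 and 0.376 CPM in 2-cell transcriptomes, at 9.51, 3.58 and 5.13 CPM in 8-cell transcriptomes and at 45.0, 63.4 and 49.8 CPM in blastocysts. The ranges of 8-cell, morula and blastocyst did not overlap, and AMOTL2 rose by 3.61 from 2-cell to 8-cell (SE 0.92, edgeR adjusted p = 0.00223) and by 7.58 from GV to blastocyst (SE 1.10, edgeR adjusted p = 2.95e-06) on the log2 scale. NF2 (merlin), which promotes LATS activation at the membrane, was at 1.95, 2.54 and 0.476 CPM in MII, 4.95, 3.76 and 6.24 CPM in 2-cell, 24.1, 15.7 and 12.7 CPM in morula and 54.4, 54.5 and 61.2 CPM in blastocyst transcriptomes. It rose from morula to blastocyst by 1.70 (SE 0.44, edgeR adjusted p = 0.00631) and from GV to blastocyst by 3.85 (SE 0.48, edgeR adjusted p = 4.18e-07). Its MII to 2-cell change of 1.58 (edgeR adjusted p = 0.0232) was not called without MII transcriptome A (1.69, adjusted p = 0.0558) or C (1.13, 0.136), nor without 2-cell transcriptome A (1.59, 0.0529) or C (1.39, 0.101), nor with pools of F9 and F10 in the model (1.56, 0.0788).

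By step, 0 of the 10 genes changed in the transcriptome from GV to MII (18.6% of all genes called), 2 on reaching 2-cell (13.1%), 5 on reaching 8-cell (52.3%), 0 on reaching morula (15.4%) and 1 on reaching blastocyst (23.2%). Beside the 0 called from GV to MII, 2 genes had an unadjusted p under 0.05 (LATS1 and NF2), and 3 had one from 8-cell to morula (TEAD3, LATS2 and NF2) in the edgeR test. The likelihood ratio test of edgeR and DESeq2 each called 2 genes at both of these steps. When the transcriptomes were fitted without the pools, 19 changes of the 50 tested were called in place of 8, and the 11 further ones were those of YAP1, LATS1 and NF2 from GV to MII, YAP1 from 2-cell to 8-cell, WWTR1, LATS2, AMOTL2 and NF2 from 8-cell to morula, and TEAD2, LATS2 and AMOTL2 from morula to blastocyst.

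The polysome pools were compared between stages in the same model. Here 0 genes changed from GV to MII (5.43% of all genes called), 2 on reaching 2-cell (8.65%), 4 on reaching 8-cell (47.3%), 3 on reaching morula (37.0%) and 0 on reaching blastocyst (14.2%). From GV to MII, 3 genes had an unadjusted p under 0.05 in the edgeR test (TEAD2, TEAD4 and AMOTL2), and the likelihood ratio test and DESeq2 called 1 gene each. From morula to blastocyst the unadjusted edgeR test, the likelihood ratio test and DESeq2 gave 0. When the pools were fitted without the transcriptomes, 5 of the 9 changes were called, and those of AMOTL2 and WWTR1 from MII to 2-cell (adjusted p = 0.394 and 0.377), TEAD1 from 2-cell to 8-cell (0.126) and NF2 from 8-cell to morula (0.0705) were not.

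**Figure D1:**
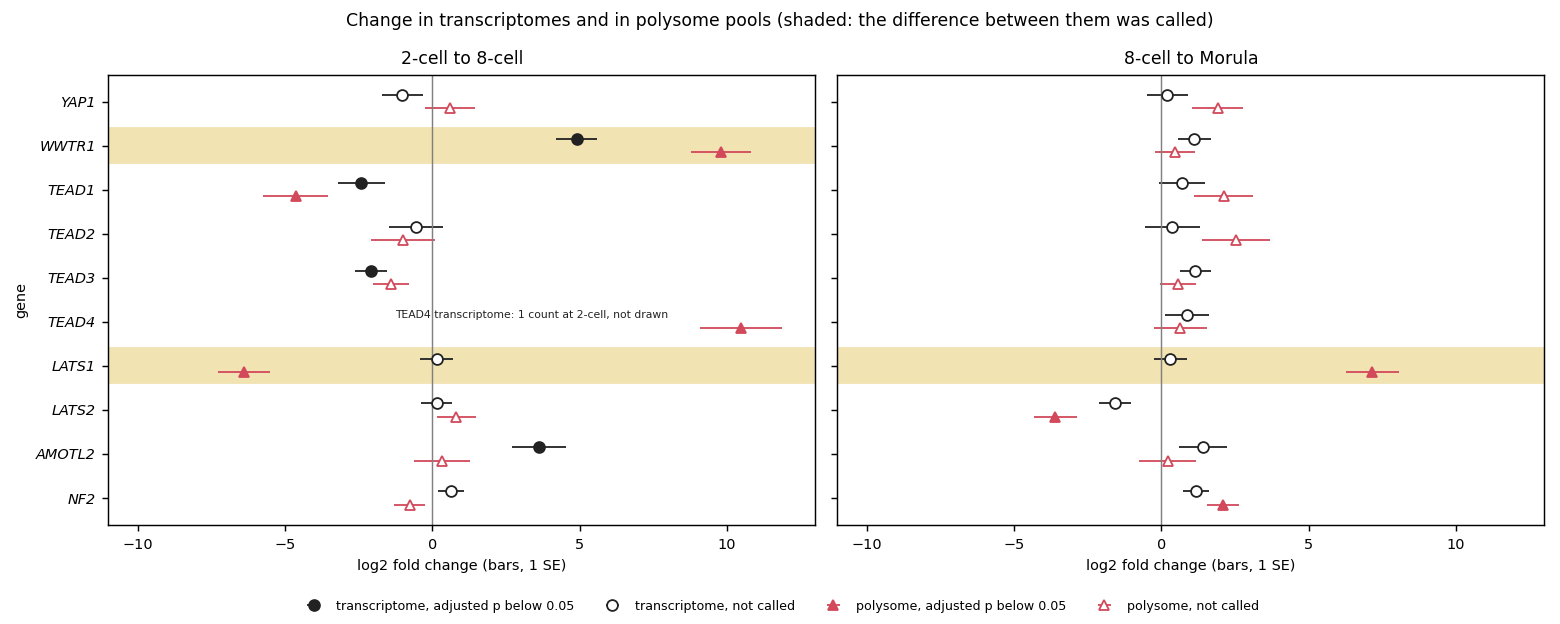
Log2 changes (horizontal axis) on reaching 8-cell (left) and morula (right) for the 10 genes in the transcriptomes and in the polysome pools. Bars are 1 SE, filled symbols are called changes and shading marks a called difference between both kinds. From 2-cell to 8-cell, WWTR1 rose by 4.89 in the transcriptomes and 9.80 in the pools, and LATS1 fell by 6.41 in the pools with a transcriptome change of 0.14.

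WWTR1 was at 0 and 0.338 CPM in the 2 2-cell pools and at 96.0 and 211.3 CPM in the 2 8-cell pools, a log2 change of 9.80 (SE 1.02, edgeR adjusted p = 7.94e-08). TEAD4 was at 0 and 0.277 CPM and at 211.1 and 195.1 CPM in the same pools, a log2 change of 10.49 (SE 1.39, edgeR adjusted p = 5.60e-06). The 2-cell pools held only 11 WWTR1 and 9 TEAD4 counts, all in pool B, so the sizes are imprecise. With 1 pool left out, the change ran from 8.80 to 14.4 for WWTR1 and from 9.49 to 14.8 for TEAD4. For both genes the 8-cell pools lay above every earlier pool, in which WWTR1 had been at 0 to 1.68 CPM and TEAD4 at 0 to 1.29 CPM. TEAD1 was at 12.8 and 16.8 CPM in 2-cell pools and at 0 and 1.14 CPM in 8-cell pools, which did not overlap, and the log2 change was -4.64 (SE 1.10, edgeR adjusted p = 0.00146). Because one 8-cell pool was at 0, its size rested on pool B, and without that pool it was -11.

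LATS1 fell in the heavy fractions at the 8-cell stage and rose again at the morula stage. Its pools stood at 15.8 and 7.94 CPM at 2-cell, at 0 and 0.244 CPM at 8-cell, and at 31.5 and 8.48 CPM at morula. The 8-cell pools lay below all 10 others, with log2 changes of -6.41 (SE 0.88, edgeR adjusted p = 3.67e-06) into the stage and 7.16 (SE 0.91, edgeR adjusted p = 3.91e-06) out of it. In the transcriptomes of the same stages LATS1 differed little, at 13.69 to 20.06, 16.13 to 20.44 and 20.20 to 24.24 CPM. Pool B held all 9 LATS1 counts of the 8-cell pools, and without it the changes were -10.7 and 11.4.

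The 8-cell fractions themselves showed where LATS1 reads lay. In gradient A, LATS1 was at 2.51 CPM in F2, 2.04 CPM in F3 and 0 in the other 8 fractions. In gradient B, LATS1 ranged from 2.12 to 14.6 CPM in F1 to F5, reached 38.4 CPM in F6, and was at 0, 0, 0.527 and 0.185 CPM in F7 to F10. Thus F7 and F8 were at 0 in both gradients, and 13 of the 14 light fractions (F1 to F7) were below every 8-cell transcriptome. The mean level in F1 to F7 relative to the transcriptomes was -1.89 on the log2 scale, and that in F8 to F10 was -4.39. In morulae the signal came in single fractions, with 74.2 CPM in F8 of gradient A, where F9 and F10 were at 0, and 25.0 CPM in F10 of gradient B.

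LATS2 and NF2 also changed between 8-cell and morula pools. LATS2 was at 90.6 and 99.9 CPM in 8-cell pools and at 1.83 and 13.8 CPM in morula pools (log2 change -3.60, SE 0.72, edgeR adjusted p = 0.000549), the direction of its transcriptome values. Without morula pool B the change was -5.67, and without it the LATS2 pools also rose from morula to blastocyst by 2.04 (adjusted p = 0.0483), a change of -0.06 with all pools. NF2 was at 7.75 and 16.2 CPM and then at 54.8 and 46.4 CPM (log2 change 2.08, SE 0.54, edgeR adjusted p = 0.00483). The groups did not overlap for either gene.

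From MII to 2-cell, AMOTL2 rose from 1.37 and 0 CPM to 11.9 and 15.04 CPM (log2 change 4.29, SE 1.11, edgeR adjusted p = 0.0169) and WWTR1 fell from 1.23 and 1.68 CPM to 0 and 0.338 CPM (log2 change -3.08, SE 0.83, edgeR adjusted p = 0.0207). The pools did not overlap for either gene. The AMOTL2 call was lost without MII pool B (3.28, adjusted p = 0.0922) or 2-cell pool B (4.11, 0.0572), and its value was 10.9 without MII pool A. The WWTR1 call was lost without MII pool B (-2.85, adjusted p = 0.0966) or 2-cell pool A (-2.08, 0.162), and its value was -7.68 without 2-cell pool B.

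Whether a polysome change differed from the transcriptome change was tested as an interaction in the same model. It was called for 0 genes from GV to MII (10.6% of all genes called) and 0 on reaching 2-cell (1.81%), for 2 on reaching 8-cell (12.2%), for 1 on reaching morula (12.5%) and for 0 on reaching blastocyst (12.3%). At the 3 steps with 0, the edgeR test gave 1, 3 and 1 genes with an unadjusted p under 0.05, the likelihood ratio test called 1, 2 and 0, and DESeq2 1, 2 and 1. WWTR1 rose by 4.91 more in the pools than in the transcriptomes into the 8-cell stage (SE 1.03, edgeR adjusted p = 0.00326). LATS1 changed by -6.56 (SE 1.0, edgeR adjusted p = 0.000151) and 6.86 (SE 1.01, edgeR adjusted p = 9.72e-05) relative to its transcriptomes into and out of that stage. Without 8-cell pool B the LATS1 values were -10.8 and 11.1, and without 2-cell pool B the WWTR1 value was 9.51. With pools of F9 and F10 alone, LATS1 out of the 8-cell stage was at 4.63 and not called (adjusted p = 0.119). For TEAD4 the difference of 1.49 had an SE of 3.34, because its 2-cell counts were so few.

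Within a stage, the polysome pools were compared with the transcriptomes to ask which transcripts were over- or under-represented in heavy fractions. Of 60 such tests on the 10 genes, 31 were called, 27 higher and 4 lower in the pools. Higher members were 3 at GV (39.8% of all genes called in either direction), 5 at MII with 1 lower (57.5%), 5 at 2-cell with 1 lower (51.0%), 4 at 8-cell with 2 lower (59.1%), 6 at morula (51.7%) and 4 at blastocyst (40.1%). Of all 14612 genes, those called higher numbered 3238, 4500, 4250, 4094, 3871 and 2926 in the order of the stages. Those called lower numbered 2584, 3908, 3200, 4535, 3679 and 2934. The median over the 10 genes ranged from 0.899 to 1.91 on the log2 scale against -0.265 to 0.183 over all genes. The all-gene median at the 8-cell stage was -0.265 under the trimmed-mean scaling used, -0.504 with RLE factors in edgeR and -0.342 under library size alone. It was -0.378 in DESeq2, so 8-cell values stand against that shift. Marker sums differed between the 2 kinds of library as well. The 9 oocyte markers summed to 2980 to 4440 CPM in 8-cell pools against 345.9 to 695.6 CPM in 8-cell transcriptomes, and the 10 trophectoderm and inner cell mass markers to 5094 to 6713 CPM in morula pools against 460.3 to 754.7 CPM in morula transcriptomes. The 10 cumulus markers were lower in 8-cell pools, at 85.88 to 136.7 CPM against 266.9 to 1195 CPM. The part of these differences in the results was not tested.

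**Figure D2:**
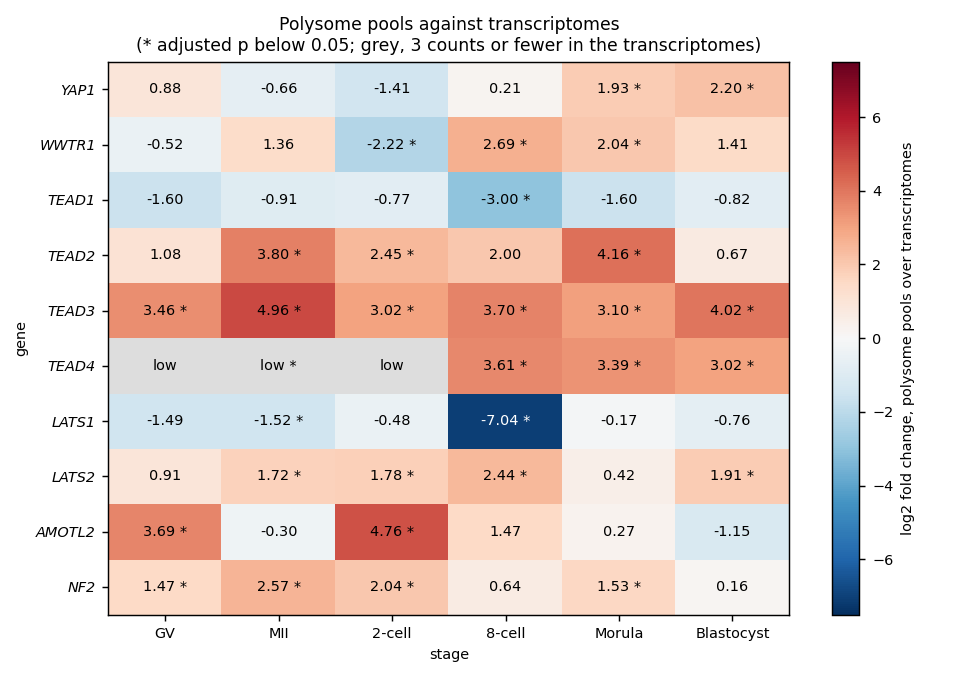
Heat map of the log2 difference between polysome pools and transcriptomes for each gene (rows) and stage (columns). Stars mark called differences, and grey cells have 3 or fewer transcriptome counts. TEAD3 lay between 3.02 and 4.96 at all 6 stages and LATS1 was at -7.04 in 8-cell embryos.

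TEAD3 was called higher in the pools at all 6 stages, as were 1449 of 14612 genes (9.92%). Its pools held 12.3 and 10.6 CPM at GV against 1.44, 0.718 and 0.912 CPM in the transcriptomes, and 33.5 and 36.6 CPM at blastocyst against 1.76, 2.49 and 2.20 CPM. At no stage did the pools and transcriptomes overlap, and the log2 differences ran from 3.02 (SE 0.57) at 2-cell to 4.96 (SE 0.63) at MII, with edgeR adjusted p between 3.76e-07 and 0.000103. TEAD4 was higher at the 8-cell (3.61, SE 0.85), morula (3.39, SE 0.84) and blastocyst (3.02, SE 0.84) stages (edgeR adjusted p = 0.00125, 0.00238 and 0.00721), with pools at 135.1 to 377.2 CPM and transcriptomes at 9.77 to 38.6 CPM. At MII its 36 pool counts, at least 5.82-fold above the transcriptome floor, all came from pool B, and without that pool the value was 0. Without MII transcriptome B that call missed the threshold, with an adjusted p of 0.0504.

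WWTR1 was higher in the pools at 8-cell (2.69, SE 0.62, edgeR adjusted p = 0.000800) and morula (2.04, SE 0.61, edgeR adjusted p = 0.00789). At 2-cell it was lower (-2.22, edgeR adjusted p = 0.0258), a call that was lost without pool A (-1.23, adjusted p = 0.225), transcriptome B (-2.15, 0.055) or transcriptome C (-1.88, 0.0885), and the value was -6.82 without pool B. YAP1 was higher at morula (1.93, edgeR adjusted p = 0.0372) and at blastocyst (2.20, SE 0.78, edgeR adjusted p = 0.0270), where its pools held 13.7 and 13.1 CPM against 0.882, 4.35 and 3.40 CPM. The morula value rested on pool A, at 28.5 CPM against 6.61 CPM in pool B, and was 0.498 without it (adjusted p = 0.672). It was also not called without transcriptome A (1.89, adjusted p = 0.085), B (1.89, 0.0862) or C (1.99, 0.0737). The blastocyst value was not called without pool A (2.15, 0.0771), pool B (2.23, 0.0678), transcriptome A (1.79, 0.102) or transcriptome C (2.32, 0.0554).

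TEAD2 was higher at MII (3.80, SE 1.05, edgeR adjusted p = 0.00366), where its pools held 22.3 and 26.0 CPM against 1.19 to 2.03 CPM. At morula its pools held 85.2 and 1.38 CPM against 2.15, 3.04 and 2.05 CPM. The call there (4.16, edgeR adjusted p = 0.00227) came from pool A, whose F8, F9 and F10 were at 50.0, 102.3 and 33.4 CPM, and without that pool the value was -0.83 (adjusted p = 0.539). Leaving out only F9 of gradient A, the heavy fraction with the fewest genes detected, together with MII F10 of gradient B, kept the call (3.29, adjusted p = 0.00869). The 2-cell call (2.45, edgeR adjusted p = 0.0445) was lost without pool A (1.54, adjusted p = 0.316), transcriptome A (2.35, 0.11), B (2.45, 0.099) or C (2.57, 0.0822).

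LATS2 was higher at MII (1.72), 2-cell (1.78), 8-cell (2.44, SE 0.60) and blastocyst (1.91), with edgeR adjusted p of 0.0158, 0.0149, 0.00132 and 0.0210. The 8-cell pools held 90.6 and 99.9 CPM against 15, 25.3 and 12.3 CPM. The MII call was lost without pool B (1.51, adjusted p = 0.0862) or transcriptome C (1.62, 0.0532), the 2-cell call without pool B (1.54, 0.0904) or transcriptome B (1.70, 0.0502), and the blastocyst call without pool A (0.801, 0.412) or transcriptome C (1.44, 0.102). At morula, where the LATS2 value of 0.42 was not called, leaving out pool B gave -1.69 (adjusted p = 0.0471). LATS1 was lower at 8-cell (-7.04, SE 0.89, edgeR adjusted p = 5.18e-07) and was -11.3 without pool B. At MII it was also lower (-1.52, edgeR adjusted p = 0.0497), which was lost without pool A (-1.62, adjusted p = 0.131), pool B (-1.50, 0.156), transcriptome B (-1.39, 0.105) or transcriptome C (-1.55, 0.0746).

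TEAD1 was lower at 8-cell (-3.00, SE 0.99, edgeR adjusted p = 0.0125), at -2.04 without pool A (adjusted p = 0.0646) and -9.36 without pool B. AMOTL2 was higher at GV (3.69, SE 1.01, edgeR adjusted p = 0.00519) and 2-cell (4.76, SE 0.99, edgeR adjusted p = 0.000305), where its pools held 11.9 and 15.04 CPM against 0.376 to 0.640 CPM. NF2 was higher at GV (1.47, edgeR adjusted p = 0.0170), MII (2.57, SE 0.50, edgeR adjusted p = 0.000117), 2-cell (2.04, SE 0.48, edgeR adjusted p = 0.00104) and morula (1.53, SE 0.47, edgeR adjusted p = 0.00934). Its GV call was lost without pool A (1.23, adjusted p = 0.12) or transcriptome C (1.27, 0.0762). With pools of F9 and F10 alone, the calls of AMOTL2 at GV (1.86, adjusted p = 0.286), NF2 at GV (0.851, 0.262) and morula (1.34, 0.0531), LATS2 at 8-cell (1.37, 0.0874), and WWTR1 (1.85, 0.0569) and YAP1 (0.778, 0.392) at morula were also lost. With library size alone, the calls of NF2 (1.12, adjusted p = 0.0659) and YAP1 (1.45, 0.107) at morula, YAP1 (1.88, 0.0525) and LATS2 (1.57, 0.061) at blastocyst, TEAD2 at 2-cell (2.37, 0.0518) and LATS1 at MII (-1.42, 0.0619) were lost. The last 2 were lost in several further alternatives.

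The light fractions F1 to F7, compared after the pool results were known and described without a test, also differed from the transcriptomes for several of the genes. TEAD3 averaged 2.39 to 5.01 above the transcriptomes on the log2 scale in the light fractions, by stage, and exceeded every transcriptome in all 14 light libraries at GV, MII and 2-cell, in 13 at 8-cell and in 9 at morula and blastocyst. TEAD4 averaged 2.30 to 3.19 above from the 8-cell stage on, and LATS2 1.07 to 2.88 from GV to morula. LATS1 averaged from -3.10 to -1.04 at every stage. Several other differences called higher in the pools were also seen in the light fractions. There NF2 averaged 1.39 to 2.46 at GV, MII, 2-cell and morula, and AMOTL2 2.99 at GV and 2.98 at 2-cell. TEAD2 averaged 1.61 to 2.11 at MII, 2-cell and morula, and WWTR1 0.978 at 8-cell and 1.42 at morula. The called differences of TEAD1 and YAP1 were absent or smaller in the light fractions. TEAD1 at 8-cell averaged 0.757 in the light and -2.14 in the heavy fractions, and YAP1 -0.662 and 1.26 at morula and 0.29 and 1.67 at blastocyst. Over all genes the median of the light comparison was -0.0693 to 0.57. Set against the light fractions in place of the transcriptomes, the heavy fractions F8 to F10 averaged from -2.19 to 0.924 for TEAD3 over the 6 stages, from -0.235 to 0.86 for TEAD4 from the 8-cell stage on, and 1.46 for WWTR1 at 8-cell. The TEAD3 value was below 0 at 5 of the 6 stages. Other genes are given at stages where they were called higher in the pools. AMOTL2 was at -1.24 (GV) and 0.166 (2-cell), and NF2 at -0.527 (GV), -0.384 (MII), -0.0243 (2-cell) and -0.36 (morula). LATS2 was at 0.497 (MII), 0.401 (2-cell), -0.669 (8-cell) and 0.196 (blastocyst). TEAD2 was at 1.16 (MII), 0.304 (2-cell) and 1.26 (morula), YAP1 at 1.92 (morula) and 1.38 (blastocyst), and WWTR1 at 0.195 (morula). The all-gene median was -0.1 to 0.0981. Gradients and transcriptomes differ in how the RNA was handled and in how many oocytes or embryos were pooled, and these cannot be told apart from the difference between the 2 kinds of library.

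Within the gradients, the trend of each gene from the monosome fraction F3 to the heaviest fraction F10 was measured as the Spearman correlation (rho) of its level with fraction number over the 16 libraries of a stage. Neighbouring fractions of a gradient are not independent, which the permutation does not take into account. Of 54 tests on the 10 genes, 5 were called and all 5 fell toward the heavy fractions. They were 2 of 8 at GV (36.5% of all genes called in either direction), 1 of 8 at MII (19.6%), 0 of 8 at 2-cell (20.7%), 2 of 10 at 8-cell (15.0%), 0 of 10 at morula (1.52%) and 0 of 10 at blastocyst (7.96%). Over all genes, falling trends were called for 2136 of 11517 at GV, 1424 of 11539 at MII and 1043 of 12099 at 8-cell. By the same permutation test 1, 2 and 3 genes had an unadjusted p under 0.05 at 2-cell, morula and blastocyst, and an edgeR slope on fraction number called 0 genes at these 3 stages. The median rho over the genes was -0.438 at GV against -0.0473 over all genes, and 0.176 at blastocyst against 0.172.

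**Figure D3:**
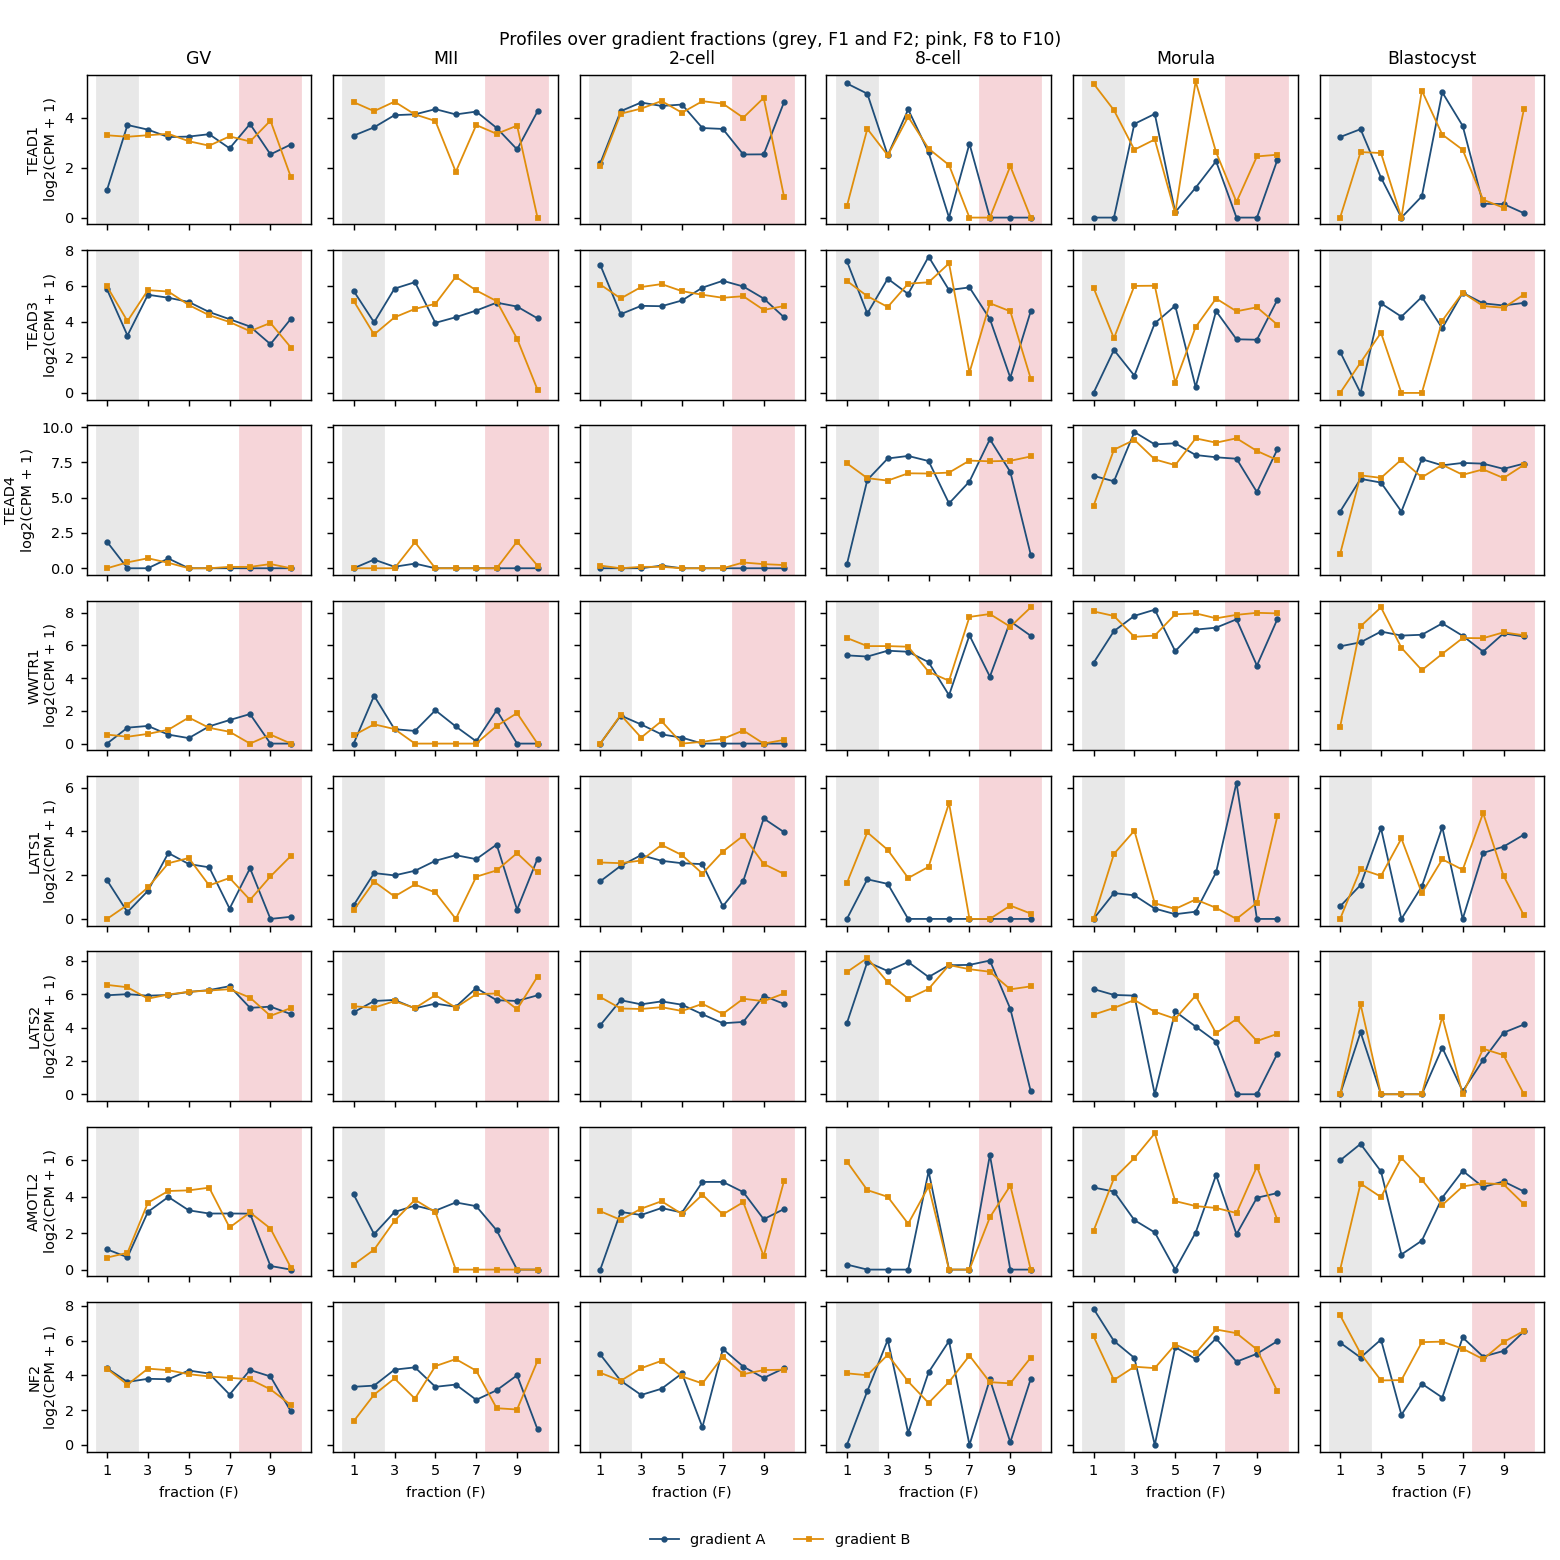
Level (log2 of CPM plus 1, vertical axis) of 8 of the genes in the 10 fractions (horizontal axis) of gradients A and B at each stage, with F1 and F2 shaded grey and F8 to F10 pink. TEAD3 at GV fell from 44.3 and 53.2 CPM in F3 to 16.8 and 4.84 CPM in F10, and LATS1 at the 8-cell stage was at 0 in F7 and F8 of both gradients.

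TEAD3 had the steepest trend at GV, with a rho of -0.905 (permutation, adjusted p = 0.000331). Gradient A read 44.3, 39.3, 33.3, 22.1, 16.5, 12.2, 5.65 and 16.8 CPM from F3 to F10, and gradient B 53.2, 50.3, 29.4, 19.5, 14.7, 10.0, 14.2 and 4.84 CPM. Both gradients fell, and even their lowest fraction lay above the highest GV transcriptome at 1.44 CPM. The call did not hold in gradient A alone, that is without gradient B, at -0.857 (adjusted p = 0.078).

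At the 8-cell stage WWTR1 and TEAD4 were spread over the gradient. WWTR1 in gradient A was at 6.73 to 49.9 CPM in F1 to F6 and at 96.6, 15.99, 175.6 and 94.6 CPM in F7 to F10, and in gradient B at 13.3 to 86.2 CPM in F1 to F6 and at 211.7, 239.5, 139.4 and 317.3 CPM in F7 to F10. In gradient B each of F7 to F10 exceeded all lighter fractions, and in gradient A 3 of the 4 did. TEAD4 was at 73.2 to 241.6 CPM in all 10 fractions of gradient B, whereas gradient A ranged from 0.210 CPM in F1 to 564.1 CPM in F8 and 0.946 CPM in F10. LATS2, at the same stage, was at 52.5 to 288.6 CPM in every fraction of gradient B and at 0.135 CPM in F10 of gradient A, with 18.3 to 259.4 CPM in its other fractions.

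Profiles of single genes in morulae and blastocysts changed sharply between neighbouring fractions. YAP1 in morula gradient A was at 0 in F2 to F6 and at 49.8 CPM in F8, while gradient B stayed between 0.240 and 14.4 CPM. LATS2 in blastocysts was at 0 in 10 of the 20 fraction libraries and reached 41.5 CPM in F2 of gradient B. LATS1 was at 0 in 10 of 20 fraction libraries at the 8-cell stage, as was AMOTL2, against 2 and 1 at GV. Over the 10 fractions, the median log2 difference between gradients was 0.26 for TEAD3 at GV and 1.96 at morula, and 0.696 and 1.37 for LATS2 at 8-cell and morula.

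The other 4 falling trends had smaller rho values. AMOTL2 fell at GV (rho -0.817, permutation, adjusted p = 0.00164) and MII (rho -0.698, adjusted p = 0.0257), TEAD1 at 8-cell (rho -0.717, adjusted p = 0.0268) and TEAD3 at 8-cell (rho -0.681, adjusted p = 0.0390). None of the 4 was called in 1 gradient alone. Without gradient A and without gradient B respectively, rho was -0.738 and -0.905 for AMOTL2 at GV, -0.791 and -0.635 for AMOTL2 at MII, -0.805 and -0.647 for TEAD1 at 8-cell, and -0.571 and -0.714 for TEAD3 at 8-cell, all by the permutation test with adjusted p of 0.0529 to 0.385. Over F1 to F10 the calls of AMOTL2 at GV (rho -0.229, permutation, adjusted p = 0.477), AMOTL2 at MII (-0.565, 0.0781) and TEAD3 at 8-cell (-0.58, 0.0809) were lost, and by the edgeR slope those of TEAD1 (adjusted p = 0.254) and TEAD3 (0.198) at 8-cell. The edgeR slope also called falls of LATS2 (adjusted p = 0.0395) and NF2 (0.0457) at GV, which the permutation test did not (0.141 and 0.0626). WWTR1 had a rho of 0.515 at 8-cell that was not called (permutation, adjusted p = 0.158).

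The rest of the pathway was described by 6 lists of related genes, counted from GV to blastocyst in the transcriptomes over the members that were tested. Of 19 core kinases and adaptors, 7 rose and 4 fell (median log2 change 0.919, against 0.0 over all genes). Both shares, and those of the other lists, are to be read against 27.8% of all genes higher and 28.5% lower. WWC2, a scaffold that binds LATS kinases, rose by 5.08 (SE 0.78, edgeR adjusted p = 7.07e-06), from 1.13 to 2.05 CPM in GV to 43.2 to 60.1 CPM in blastocysts, and its paralog WWC1 rose by 4.87 (SE 1.205). STK4 (MST1), the kinase upstream of LATS, fell by 2.32 (SE 0.87, edgeR adjusted p = 0.0263), from 83.7 to 108.7 CPM to 10.0 to 33.5 CPM. MAP4K1 fell by 2.06 (SE 0.34).

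Of 17 angiomotins and other binding partners of YAP1 or LATS, 5 rose and 6 fell (median -0.0366). Of the 6 listed genes for 14-3-3 proteins, which hold phosphorylated YAP1 in the cytoplasm, 4 rose, among them YWHAG by 4.40 (SE 0.30), YWHAQ by 3.48 (SE 0.25) and YWHAH by 2.00 (SE 0.36). YWHAZ fell and YWHAE was not called, both named after their values were seen. AMOTL1, an angiomotin, fell by 4.24 (SE 0.83, edgeR adjusted p = 0.000133), the opposite direction to AMOTL2. AJUBA, a LIM protein that inhibits LATS, went from 268 to 2 counts over the 3 libraries, a ratio of 0.0185 with a 95% counting interval of 0.00223 to 0.0675 (edgeR adjusted p = 2.89e-06).

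Of 16 members of STRIPAK, a phosphatase complex that switches off the kinases upstream of LATS, 5 rose and 2 fell (median 0.403), among them STRN4, which rose by 4.08 (SE 0.75), and FGFR1OP2, which fell by 2.89 (SE 0.46). Of 20 polarity and junction genes, 11 rose and 1 fell (median 2.16). PRKCZ, an apical polarity kinase, rose by 4.19 (SE 0.48, edgeR adjusted p = 1.20e-07) and LLGL1 by 3.82 (SE 0.69), while RHOA, a regulator of the actin cytoskeleton, fell by 1.64 (SE 0.24). FAT4, a cadherin, was at 0 counts in GV and 10 in blastocyst transcriptomes, at least 8.26-fold higher.

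Of 3 TEAD cofactors, VGLL1 rose and VGLL4 fell. VGLL1 went from 0 to 38 counts, at least 31.4-fold higher (edgeR adjusted p = 0.000853), and VGLL4, which competes with YAP1 for TEAD binding, fell by 3.51 (SE 0.45, edgeR adjusted p = 5.12e-07). Of 11 tested genes in a list of YAP1-TEAD target and trophectoderm genes, 10 rose and 0 fell (median 5.02). The list as drawn up also named SOX2, which is not a trophectoderm gene. KRT18, a trophectoderm keratin, had no count in GV and 3003 to 3389 CPM in blastocysts. CCN1, a YAP1 target, was at 0.103 to 0.456 CPM and then at 29.4 to 33.5 CPM (log2 change 6.85, SE 1.10, edgeR adjusted p = 1.28e-05), and TFAP2C, a trophectoderm transcription factor, was at 0 to 0.304 CPM and then at 355.5 to 468.2 CPM. Several of these genes are also among the markers of embryonic cell types, whose sum rose over the same stages.

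Over the 18 transcriptomes and 12067 genes, the profiles most like that of TEAD4 were those of MEDAG (Pearson r 0.990), TET1 (0.989) and IGF2BP1 (0.989). Those most like LATS2 were CXCR4 (0.958), DDIT3 (0.954) and ARRDC2 (0.952), and those most like YAP1 were EPS15 (0.813), MB21D2 (0.806) and ZMPSTE24 (0.801). These are descriptions over libraries that share their stage, with no test.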

How the data were processed

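RNA-seq libraries of 6 stages were used, 120 gradient fractions and 18 transcriptomes. Per the study's methods, the authors made Smart-seq libraries and quantified reads with Salmon, and the deposited table holds estimated counts per gene, with no normalization. It has 16706 gene symbols, and 11.7% of its values are not whole. The methods name the ARS-UCD1.2 assembly and the submitters' processing notes UMD3.1, so the build is not settled here, and no coordinate was used. Whether counting used strand is not given in the sources used here.

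Groups came from the sample titles. Counts were rounded, F8 to F10 of each gradient were summed, and the 12 pools and 18 transcriptomes were fitted in 1 model of 12 groups with edgeR 4.0.16 in R 4.3.3 (quasi-likelihood F test, TMM factors, filterByExpr, Benjamini-Hochberg adjustment over 14612 genes, calls at an adjusted p under 0.05). SE is the log2 change divided by the root of F. Because 1 model held both kinds of library, they shared their estimate of spread. Trends over F3 to F10 used Spearman's rho of log2(CPM + 1) and 100000 two-sided permutations, adjusted over genes with a mean of at least 1 CPM at that stage. Levels in CPM of the fractions and of the 30 libraries in the model were scaled separately by TMM over each set. Folds from a group at 0 used a floor of 3 counts over the group, and ratios with 1 to 3 counts an exact 95% interval. Steps were tested on simulated data. No replicates were identical (0 of 78 pairs).

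All 10 genes were tested in each edgeR comparison, and values are given mainly for the called ones. Other pathway genes were counted by list, at most 3 per direction being named, those with the largest called change. The 10 genes and the lists were chosen with earlier results of these data known. Alternatives were the likelihood ratio test, DESeq2 1.42.0, RLE factors, library size alone, no filter, separate fits, a replicate block, pools of F9 and F10, a minimum fold of 2, other trend settings, and leaving out each library. No sequences of these genes were used here.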

Additional observations from a re-analysis of the deposited data

Results flagged for a closer look

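These 3 results were singled out because a gene changed differently in the polysome pools and in the transcriptomes of the same stages, by an interaction test in the edgeR model. WWTR1 rose from 2-cell to 8-cell by 4.91 log2 units more in the pools than in the transcriptomes (adjusted p = 0.00326), and both 8-cell pools, at 96.0 and 211.3 CPM, lay above the 3 transcriptomes at 18.2 to 28.6 CPM. The size of the WWTR1 difference also rested on the 2-cell pools, which held only 11 WWTR1 counts. It ran from 3.92 to 9.51 when 1 library was left out. LATS1 changed from 2-cell to 8-cell by -6.56 relative to its transcriptomes (adjusted p = 0.000151), with pools of 0 and 0.244 CPM. From 8-cell to morula the LATS1 difference was 6.86 (adjusted p = 9.72e-05). The latter 2 values share the 8-cell libraries and so are not independent of each other.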

How the results depend on the processing

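Of the 8 changes of the 10 genes called between consecutive transcriptomes, 6 were kept in every alternative and leave-out run, as were 5 of 7 from GV to blastocyst, 5 of 9 between pools, 15 of 31 of pools against transcriptomes, 2 of 3 interactions and 0 of 5 trends. The number called between transcriptomes was 13 by the likelihood ratio test, 15 by DESeq2 and 19 with the transcriptomes fitted alone. Between pools it was 15 by DESeq2 and 5 with the pools fitted alone. Interactions numbered 7 by the likelihood ratio test and 9 by DESeq2. The cause was not tested, although the separate fits by construction do not share the spread of both kinds of library. Leaving out 1 library gave 7 to 12 calls between transcriptomes, 5 to 8 from GV to blastocyst, 8 to 12 between pools, 27 to 34 of pools against transcriptomes and 3 to 8 interactions, and leaving out 1 gradient gave 0 to 3 trends, with 8 libraries a stage. Without morula pool B, LATS2 reversed from morula to blastocyst pools (2.045, leave-outs from -1.143) and against the morula transcriptomes (-1.688, leave-outs up to 1.209), and without morula pool A, TEAD2 reversed against them (-0.8257, leave-outs up to 5.129). No pairing of libraries by replicate letter was seen, in that in 0 of 17 comparisons did every same-letter pair correlate over 0.1. With 2 pools a stage this check is weak and could miss a pairing. With the letter as a replicate block the calls were 8, 6, 9, 28 and 3 in the order above. An edgeR slope with the gradient as a block called 5 trends, with LATS2 and NF2 at GV in place of TEAD1 and TEAD3 at 8-cell. Pools without MII F10 of gradient B and morula F9 of gradient A, an alternative chosen after seeing the data, gave 9, 7, 10, 30 and 3. Depth limits genes with few counts most, and the blastocyst transcriptomes, at 3269385 to 5256286 counts, were the shallowest.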
